A study of Mus musculus with 10 samples.

Results

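The genes described here are 9 genes of liver glycogen metabolism, out of 12148 genes counted in the livers of germ-free (GF) mice. *Ppp1r3b*, *Ppp1r3c* and *Ppp1r3g* encode subunits that target protein phosphatase 1 (PP1) to glycogen. *Ugp2*, *Gyg*, *Gys2* and *Gbe1* encode enzymes of glycogen synthesis, and *Pygl* and *Phka2* act in glycogen breakdown. The 9 genes were chosen by name, from their expression in MEV-treated and PBS-treated livers, which is the same contrast as the one described below. Their differences between the groups, and on which side of the threshold of the fit across all genes each one fell, are therefore given as a description, with no p-value, and serve as no test of these genes.

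All mice were wild-type C57BL6 animals kept germ-free, so the controls also lacked a gut microbiota, and their age is not given in the sources used here. Mice of the GF+MEV group (n = 5) received 80 μg of microbiota-derived extracellular vesicles (MEV) in PBS by mouth, 2 doses per week for 3 weeks, and mice of the GF+PBS group (n = 5) received PBS alone on the same schedule. The vesicles, membrane particles shed by gut bacteria, had been purified from caecal content and stool of conventionally colonised control mice, and the experiment was run 1 time. Whole liver was sequenced, 1 library per mouse, so a difference can come from the number of cells of a type or from the RNA per cell, which cannot be told apart.

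Glycogen is the branched glucose store of the liver. UDP-glucose made by UGP2 is added to a primer built by glycogenin (*Gyg*), glycogen synthase (*Gys2* in liver) lengthens the chains and the branching enzyme GBE1 branches them, while glycogen phosphorylase (*Pygl* in liver) releases glucose-1-phosphate. Phosphorylation switches synthase off and phosphorylase on, and PP1 reverses both when a glycogen-targeting subunit holds it at the particle. The liver expresses several such subunits, of which *Ppp1r3b* encodes the classical hepatic form GL, *Ppp1r3c* encodes PTG, and *Ppp1r3g* encodes a form whose liver mRNA is known to depend on feeding.

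Libraries held 15746119 to 20523649 counts on genes in GF+MEV livers and 16140770 to 19733387 in GF+PBS livers, and values below are TMM CPM, a count divided by the size of its library after scaling with edgeR's TMM factor. Over the 12147 genes with at least 20 counts, edgeR's quasi-likelihood test at an adjusted p under 0.05 placed 500 genes higher in GF+MEV livers (4.12%) and 428 lower (3.52%). That split was 428 and 612 with upper-quartile scaling and 332 and 691 with library size alone. In GF+MEV replicate 2, the 5 genes most in excess there held 10.3% of the counts, against 0.499% to 1.38% in the other libraries. Distances within GF+PBS were taken as the root mean square over the 11834 genes that averaged 1 CPM or more. Replicates 4 and 5 (0.263 log2 CPM) and replicates 1 and 3 (0.270) were the 2 closest pairs. The 8 other GF+PBS pairs ran from 0.297 to 0.390. Since those 2 pairs were singled out as the closest, the gap is a description and not a test of how the controls were spread. The defining markers of hepatocytes were abundant (7 markers, summing to 96668 to 115219 CPM in GF+MEV livers and 100255 to 115366 in GF+PBS livers, with *Cps1* called higher). The summed cholangiocyte markers (3 genes) ran from 28.1 to 79.3 CPM and from 23.2 to 29.7, with *Krt19* called higher. The 2 others were not called and went opposite ways, *Spp1* with a log2 fold change of 0.52 and *Sox9* with -0.98. *Krt7* and *Epcam* were not among the counted genes. Those of B and T cells (4 genes) ran from 3.86 to 4.88 and from 6.61 to 8.44, with *Cd79a* and *Cd79b* lower and no T cell marker among the counted genes. Endothelial cells had *Lyve1* higher and *Clec4g* lower of 7. No marker was called among 8 of Kupffer cells and macrophages, 7 of stellate cells, 6 of skeletal muscle, 5 of erythroid cells and 1 of pancreas, and no adipocyte marker was counted. Their part in the values below was not tested.

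Of the 9 genes, the phosphatase targeting subunits *Ppp1r3g* and *Ppp1r3b* were past the threshold, both higher in GF+MEV livers (4.12% of all genes tested), and none was past it in the lower direction (3.52% of all genes tested). For the same 2 genes every GF+MEV liver lay above every GF+PBS liver, an arrangement found in 3.94% of all genes tested, and no member had every GF+MEV liver below every GF+PBS liver (3.45% of all genes). Since the genes were chosen with this contrast known, nothing is read from these shares. Across the 9 genes the median log2 fold change was 0.11 and the range -0.22 to 3.63, against a median of -0.0037 over all genes tested. By role, 2 of the 3 targeting subunits, none of the 4 enzymes of synthesis (median log2 fold change -0.11) and neither of the 2 genes of breakdown (median 0.03) were past the threshold.

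**Figure D1:**
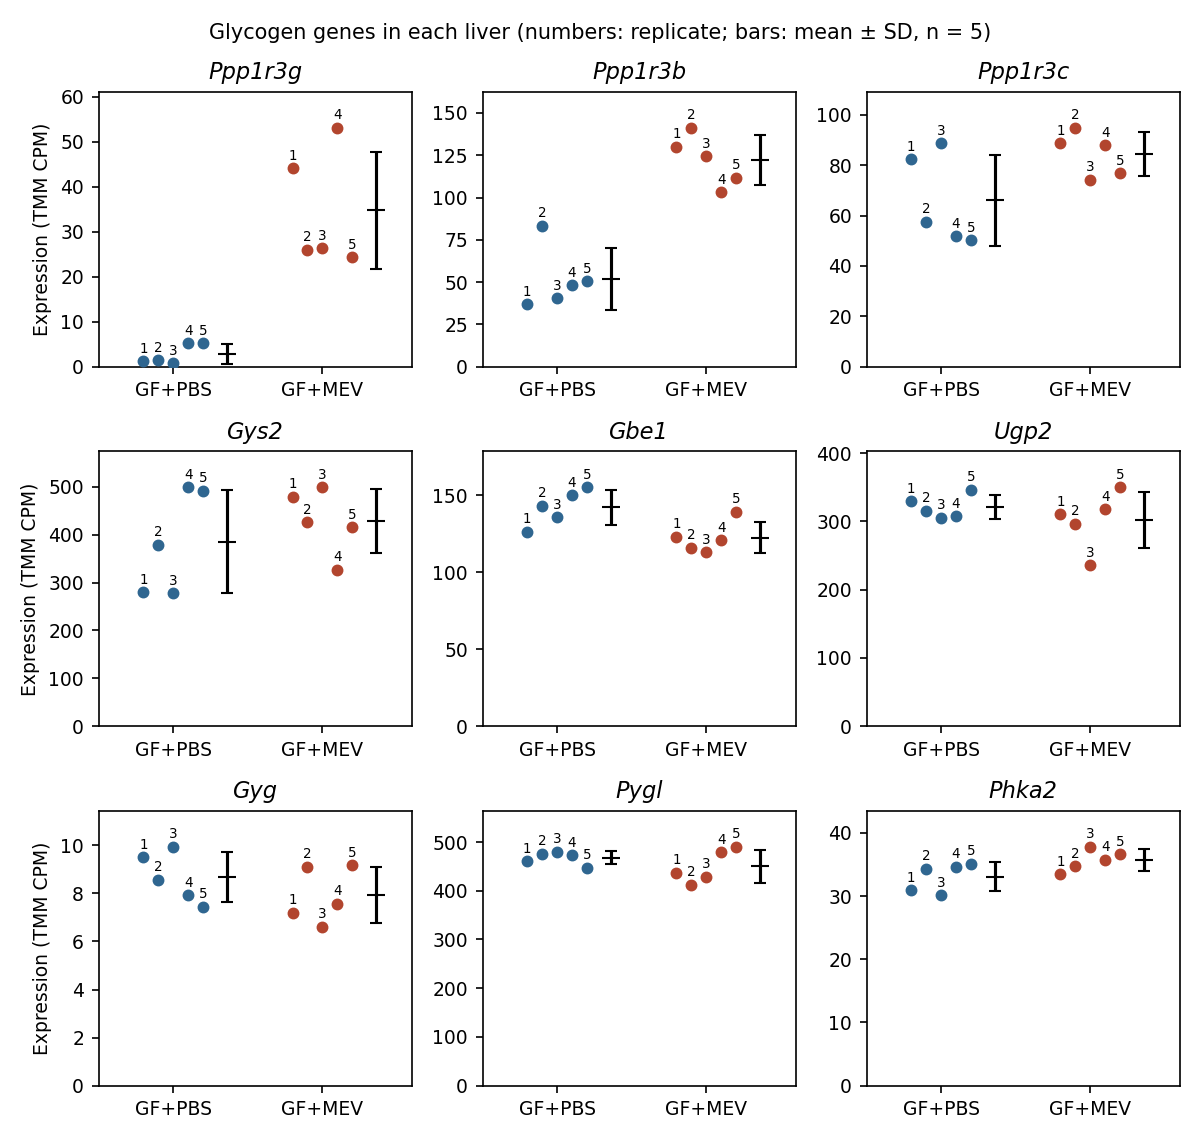
TMM CPM of the 9 genes in each liver, with 1 point per mouse labelled by replicate number and the mean ± SD of 5 livers beside each group, on axes that start at 0. *Ppp1r3g* and *Ppp1r3b* have separate groups, while the other 7 genes overlap.

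*Ppp1r3g* (ENSMUSG00000050423, chr13:35958839-35970388, plus strand) had the largest difference of the 9. Its expression in GF+MEV replicates 1 to 5 was 44.1, 26.0, 26.4, 53.1 and 24.3 CPM. In GF+PBS replicates 1 to 5 it was 1.17, 1.46, 0.83, 5.15 and 5.28 CPM. Every treated liver was above every control, replicates 1 and 4 stood highest in the treated group, and replicates 4 and 5 stood above the other 3 controls. The means were 34.8 ± 13.03 and 2.78 ± 2.24 CPM (SD, n = 5), a 12.4-fold difference. The log2 fold change was 3.63, and the standard error of the difference in mean log2 CPM was 0.58. The control values rest on 14 to 102 counts per liver, so the fold size carries more counting error than for the other genes. Across 21 alternative settings, on the same livers or on part of them, the log2 fold change ran from 3.13 to 5.10. The lowest value came against GF+PBS replicates 2, 4 and 5 alone, and the highest against GF+PBS replicates 1 and 3 alone.

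*Ppp1r3b* (ENSMUSG00000046794, chr8:35375739-35388139, plus strand), for the hepatic subunit that phosphorylase a binds, was the other gene without overlap. GF+MEV replicates 1 to 5 had 130.2, 141, 125, 103 and 112 CPM. GF+PBS replicates 1 to 5 had 36.8, 83.4, 40.4, 48.2 and 50.4 CPM. The treated livers were close together, and among the controls replicate 2 stood above the other 4 without reaching the lowest treated liver. Means were 122 ± 14.97 and 51.8 ± 18.5 CPM (SD, n = 5), a 2.36-fold difference (log2 fold change 1.24, standard error 0.22), and the log2 fold change ran from 1.01 to 1.66 over the 21 settings.

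*Ppp1r3c* (ENSMUSG00000067279, chr19:36731731-36736653, minus strand), for the subunit PTG, did not separate the groups. It had 88.8, 94.9, 74.3, 88.1 and 76.9 CPM in GF+MEV replicates 1 to 5. In GF+PBS replicates 1 to 5 it had 82.4, 57.6, 88.8, 51.8 and 50.2 CPM. GF+PBS replicates 1 and 3 lay within the treated range, and replicates 2, 4 and 5 lay below it. The means of 84.6 ± 8.66 and 66.1 ± 18.1 CPM (SD, n = 5) gave a log2 fold change of 0.36 (standard error 0.18), which missed the threshold. Without GF+PBS replicate 3 it was 0.48 and past the threshold, and set against only GF+PBS replicates 1 and 3 it was -0.02.

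The sequences before the transcription start of *Ppp1r3g* and *Ppp1r3c* are shown because *Ppp1r3g* had the largest difference of the 9 genes and *Ppp1r3c* is the subunit whose groups overlapped. They come from RefSeq windows on GRCm38.p6, trimmed to bases outside annotated exons, and are written 5′ to 3′ on the strand of the gene, with an E-box, the CACGTG hexamer bound by basic helix-loop-helix factors, in capitals.
*Ppp1r3g*, chr13:35967656-35967852, plus strand, inside the annotated span of the gene but outside its exons: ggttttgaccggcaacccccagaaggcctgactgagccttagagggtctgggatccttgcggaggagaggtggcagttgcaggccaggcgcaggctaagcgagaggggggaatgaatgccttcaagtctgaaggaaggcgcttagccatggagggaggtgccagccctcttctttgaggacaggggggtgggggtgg
*Ppp1r3c*, chr19:36736654-36736854, minus strand, directly upstream of the gene: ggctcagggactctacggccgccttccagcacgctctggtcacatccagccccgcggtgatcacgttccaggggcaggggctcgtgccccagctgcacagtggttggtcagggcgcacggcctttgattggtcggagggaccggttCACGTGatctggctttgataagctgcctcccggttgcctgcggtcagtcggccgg

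The *Ppp1r3g* stretch of 197 bases was 61.9% G or C with 5 CpG dinucleotides, and the *Ppp1r3c* stretch of 201 bases was 66.2% G or C with 16. Windows from 250 bases before to 50 bases after the start were found for 7 of the 9 genes (8 windows), all but *Ppp1r3b* and *Gys2*. Each was searched on both strands for 5 motifs, none of which contains another. The E-box CACGTG was in the window of *Ppp1r3c*, at -104 from the start, and in that of *Gyg*, at 9 bases after it, against 7.15% of all 32851 promoter windows. AGAACA, an arm of a glucocorticoid response element, was in the *Phka2* window at -153, against 19.0% of all windows. The cAMP response element TGACGTCA (1.79% of windows), the forkhead element GTAAACA (3.65%) and the TATA box TATAAA (13.6%) were in none of the 8, which says only that these letters are not in these windows.

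Because reads were counted per gene, levels of different genes are compared per kilobase of merged exon. The 4 measured genes of the Ppp1r3 family (*Ppp1r3b*, *Ppp1r3c*, *Ppp1r3e* and *Ppp1r3g*) summed to 71.5, 69.2, 59.1, 70.5 and 57.3 CPM per kilobase in GF+MEV replicates 1 to 5, and to 38.7, 37.3, 41.4, 30.6 and 30.9 in GF+PBS replicates 1 to 5. The summed level was thus higher in every treated liver than in any control, with means of 65.5 ± 6.77 and 35.8 ± 4.81 (SD, n = 5). Since *Ppp1r3g* and *Ppp1r3b* are part of the sum and were chosen with this contrast known, this separation is a description only. *Ppp1r3a*, *Ppp1r3d* and *Ppp1r3f* were not among the genes counted.

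The makeup of that sum also differed between the groups. *Ppp1r3c* held 67.0% ± 10.6 of it in GF+PBS livers and 47.4% ± 2.20 in GF+MEV livers (SD, n = 5), and by this length was the most abundant subunit mRNA in every liver. Its own mean level was not lower in GF+MEV livers (31.0 against 24.3 CPM per kilobase), so the lower share follows from the larger sum. *Ppp1r3g* held 3.18% ± 2.85 in GF+PBS livers and 19.4% ± 5.83 in GF+MEV livers, where its lowest share, 13.9% in replicate 2, was above the highest control share of 6.35%. *Ppp1r3b* held 23.7% ± 8.58 in GF+PBS livers and 30.2% ± 4.09 in GF+MEV livers, with overlapping ranges. *Ppp1r3e*, a subunit gene that is no member, held 6.14% ± 1.12 in GF+PBS livers and 2.99% ± 0.54 in GF+MEV livers. Its own expression was 5.41 ± 0.46 CPM in GF+PBS livers and 4.85 ± 0.45 CPM in GF+MEV livers (SD, n = 5), and its difference of -0.16 on the log2 scale was not past the threshold (edgeR adjusted p = 0.463). With the length of the longest transcript in place of merged exons, the share of *Ppp1r3c* was 60.1% in GF+PBS livers and 40.9% in GF+MEV livers. By that length *Ppp1r3b* held 29.7% and 36.9%, closer to *Ppp1r3c* in GF+MEV livers, and *Ppp1r3g* 3.17% and 18.9%.

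**Figure D2:**
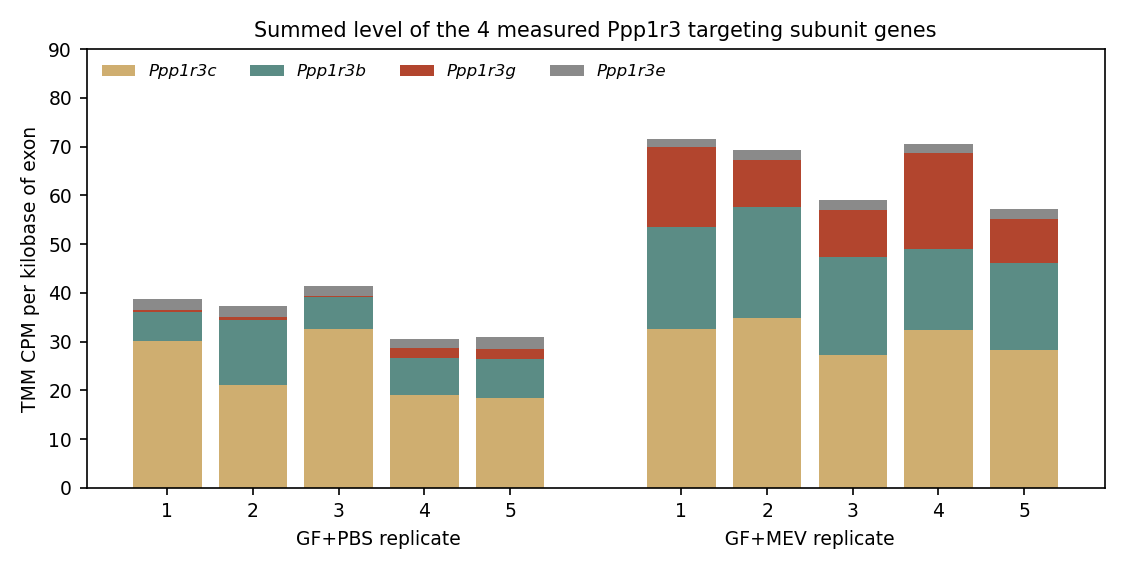
Summed TMM CPM per kilobase of merged exon of the 4 measured Ppp1r3 genes, 1 stacked bar per liver from 0, coloured by gene. The GF+MEV bars end between 57.3 and 71.5 and the GF+PBS bars between 30.6 and 41.4, and the red *Ppp1r3g* segment is thin in every GF+PBS bar.

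Within the GF+MEV group the relation of the 2 subunit mRNAs that rose varied between livers. The ratio of *Ppp1r3g* to *Ppp1r3b* per kilobase was 0.782, 0.425, 0.488, 1.18 and 0.502 in GF+MEV replicates 1 to 5. It was 0.0731, 0.0403, 0.0476, 0.247 and 0.242 in GF+PBS replicates 1 to 5. GF+MEV replicate 4, which had the highest *Ppp1r3g* and the lowest *Ppp1r3b* of the treated group, was the only liver with more *Ppp1r3g* than *Ppp1r3b* by this length. By the longest transcripts it had 22.2 and 23.6 CPM per kilobase, so that order depends on the length used. The ratio of *Ppp1r3b* to *Ppp1r3c* was 0.636 ± 0.079 in GF+MEV livers and 0.376 ± 0.184 in GF+PBS livers (SD, n = 5), and the groups overlapped through GF+PBS replicate 2.

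Among the enzymes of synthesis, *Gys2* (ENSMUSG00000030244, chr6:142422613-142473109, minus strand), the liver glycogen synthase, had 479, 426, 498, 327 and 415 CPM in GF+MEV replicates 1 to 5. It had 279.9, 379, 278, 499 and 492 CPM in GF+PBS replicates 1 to 5. The controls spanned the whole treated range, with replicates 1 and 3 below every treated liver and replicates 4 and 5 near its top. Means were 429 ± 67.0 and 385 ± 108 CPM (SD, n = 5) and the log2 fold change 0.16 (standard error 0.21), short of the threshold. Set against only GF+PBS replicates 1 and 3 it was 0.62 and past the threshold, and against only replicates 2, 4 and 5 it was -0.09.

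*Gbe1* (ENSMUSG00000022707, chr16:70313949-70569716, plus strand), the branching enzyme, had 123, 116, 113, 121 and 139 CPM in GF+MEV replicates 1 to 5. In GF+PBS replicates 1 to 5 it had 126, 143, 136, 150.1 and 155 CPM. The groups overlapped through GF+MEV replicate 5, and the other 4 treated livers lay below the lowest control. The log2 fold change was -0.22 (standard error 0.07, means 122 ± 10.3 and 142 ± 11.4 CPM, SD, n = 5) and did not pass the threshold. It was -0.26 without GF+MEV replicate 5, -0.25 without GF+PBS replicate 1, -0.26 with upper-quartile scaling and -0.29 with library size alone, and past the threshold in each of these 4 settings.

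*Ugp2* (ENSMUSG00000001891, chr11:21321138-21371201, minus strand), which makes UDP-glucose, ranged from 236 to 349.9 CPM in GF+MEV livers and from 305 to 347 CPM in GF+PBS livers, with a log2 fold change of -0.09 (standard error 0.10). Its exons share 78 bases with the uncounted gene Gm12043 on the other strand. *Gyg* (ENSMUSG00000019528, chr3:20122084-20155317, minus strand), for the glycogenin that primes new particles, ranged from 6.61 to 9.19 and from 7.45 to 9.94 CPM, with a log2 fold change of -0.13 (standard error 0.12). Both genes overlapped between the groups, and neither passed the threshold here or in any of the 21 alternative settings.

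For glycogen breakdown, *Pygl* (ENSMUSG00000021069, chr12:70190811-70231488, minus strand), the liver phosphorylase, had 437, 413, 429, 479.7 and 490.1 CPM in GF+MEV replicates 1 to 5. In GF+PBS replicates 1 to 5 it had 461, 476, 480.02, 473 and 447 CPM. These controls were the most alike of any of the 9 genes, with a coefficient of variation of 2.86%, and lay inside the treated range. The log2 fold change was -0.06 (standard error 0.05). *Phka2* (ENSMUSG00000031295, chrX:160502166-160598878, plus strand), the liver alpha subunit of the phosphorylase kinase that switches phosphorylase on, ranged from 33.4 to 37.8 CPM in GF+MEV livers and from 30.2 to 35.1 CPM in GF+PBS livers. Its log2 fold change was 0.11 (standard error 0.05), 3 of 5 treated livers lay above the highest control, and neither gene passed the threshold in any setting. The exons of *Phka2* share 115 bases with the uncounted gene Gm15243 on the other strand.

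**Figure D3:**
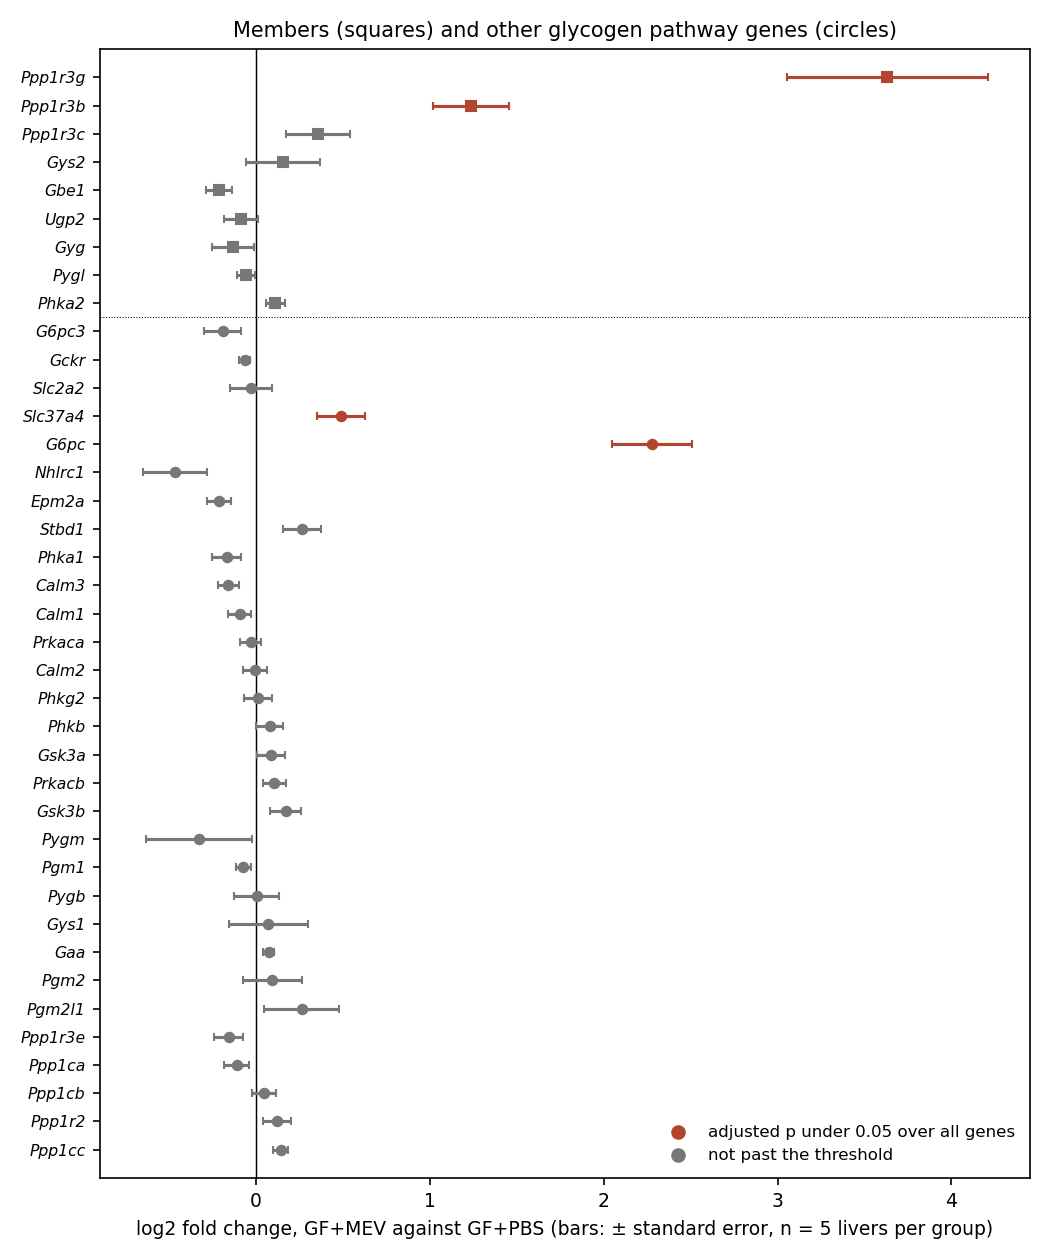
Log2 fold change of GF+MEV against GF+PBS livers (horizontal axis, bars ± standard error, n = 5 livers per group) for the 9 genes, drawn as squares, and 30 other genes of the pathway, drawn as circles. Red marks an adjusted p under 0.05 over all genes (*Ppp1r3g*, *Ppp1r3b*, *G6pc* and *Slc37a4*), which for the 9 genes is a description since they were chosen on this contrast, and the other symbols lie between -0.47 and 0.36.

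The levels of these genes among the GF+PBS livers are given here as a description. In replicates 1 and 3 against replicates 2, 4 and 5, a division of the controls taken from earlier work on other genes of these data, the mean was 85.6 against 53.2 CPM for *Ppp1r3c*, 279 against 456 CPM for *Gys2*, 38.6 against 60.7 CPM for *Ppp1r3b* and 1.0 against 3.97 CPM for *Ppp1r3g*. *Gys2* and *Ppp1r3c* thus stood in opposite order across the controls, and neither had overlap between the 2 sets. This was not particular to them. *Ppp1r3b*, *Ppp1r3g*, *Gbe1* (131 against 150 CPM) and *Phka2* (30.6 against 34.7 CPM) had no overlap either. Nor did *Gyg* (9.72 against 7.98 CPM). The share of all genes without overlap in this division was not computed, and replicates 1 and 3 were among the closest pairs of controls. Nothing is therefore read from the lack of overlap. *Pygl* (470.3 against 466 CPM) and *Ugp2* (317 against 323 CPM) were alike in both.

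**Figure D4:**
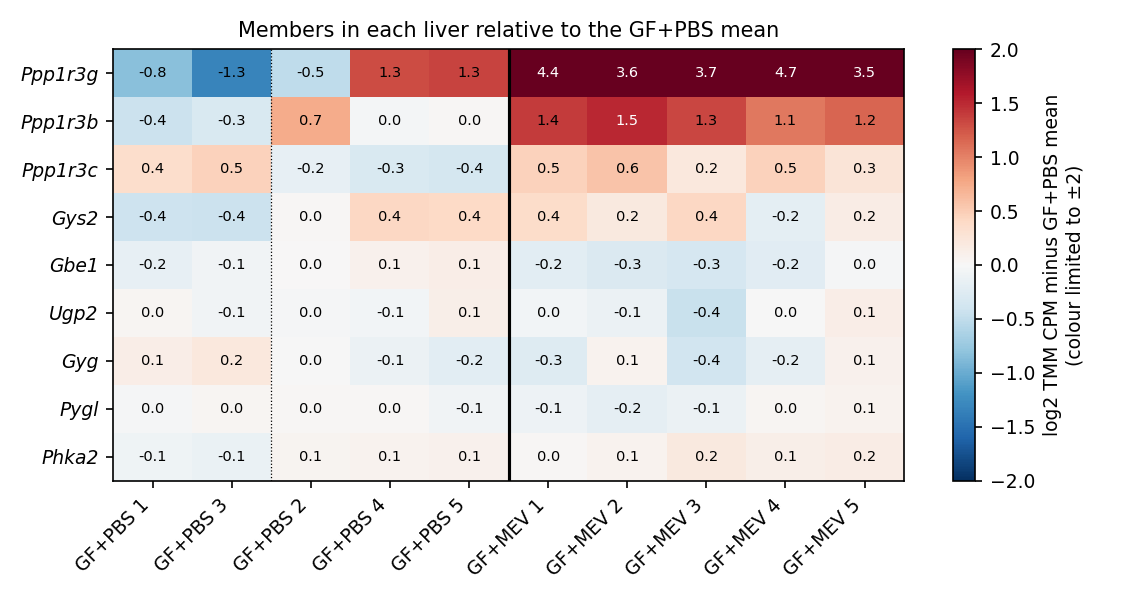
Log2 TMM CPM of each gene in each liver minus the mean of the 5 GF+PBS livers, printed in each cell, with colour limited to ± 2. GF+PBS replicates 1 and 3 stand left of the dotted line and the GF+MEV livers right of the solid line, and in replicates 1 and 3 *Gys2* is at -0.41 and -0.42 and *Ppp1r3c* at 0.36 and 0.47.

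Per kilobase of merged exon, *Gys2* was the most abundant of the 9 mRNAs in GF+PBS livers (145 ± 40.7 CPM per kilobase, SD, n = 5), followed by *Ugp2* (105 ± 5.60), *Pygl* (67.8 ± 1.94), *Gbe1* (26.6 ± 2.14), *Ppp1r3c* (24.3 ± 6.64), *Ppp1r3b* (8.34 ± 2.98), *Phka2* (5.45 ± 0.38), *Gyg* (3.70 ± 0.44) and *Ppp1r3g* (1.03 ± 0.83). In this order *Gys2* and *Ugp2* overlapped, as did *Gbe1* and *Ppp1r3c*, and the other neighbours did not. In GF+MEV livers *Ppp1r3g* reached 12.9 ± 4.84 and stood above *Phka2* (5.88 ± 0.28) and *Gyg* (3.39 ± 0.49), and *Ppp1r3c* (31.0 ± 3.18) stood above *Gbe1* (22.9 ± 1.92), although *Gbe1* had 32.8 by its longest transcript. The place of *Pygl* depends on the length used, since with its longest transcript it had 148 CPM per kilobase in GF+PBS livers, close to *Gys2*.

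The liver isoforms dominated their families in both groups. *Gys2* held 99.6% of the summed level per kilobase of *Gys1* and *Gys2* in GF+MEV livers and 99.5% in GF+PBS livers. Of the 3 phosphorylase genes, *Pygl* held 89.95% ± 2.26 and 88.7% ± 3.58 (SD, n = 5), the brain isoform *Pygb* 1.93% and 1.82%, and the muscle isoform *Pygm* 8.12% and 9.46%. These shares depend on the length used. By merged exons *Pygl* had 65.2 and 67.8 CPM per kilobase and *Pygm* 5.84 and 7.32. By longest transcripts *Pygl* had 143 and 148 and *Pygm* 6.54 and 8.19, which leaves *Pygm* a smaller share. *Phka2* held 81.4% ± 1.59 of the summed level of *Phka1* and *Phka2* in GF+MEV livers and 78.3% ± 1.69 in GF+PBS livers. The partners *Gys1* (log2 fold change 0.07), *Pygb* (0.0037), *Pygm* (-0.33) and *Phka1* (-0.17) were not past the threshold (edgeR adjusted p = 0.893, 0.992, 0.469 and 0.348). *Pygm* had its 2 highest values, both 33.3 CPM, in GF+PBS replicates 3 and 5, which also had the highest summed level of 6 skeletal muscle markers (794 and 774 CPM), and its lowest value of 12.3 CPM in GF+PBS replicate 1, which had the lowest sum (228 CPM). The part of muscle RNA in the share of *Pygl* was not tested.

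Beyond the 9 genes, 37 further genes of the pathway were listed and 32 were among the genes counted. Of these 32, 2 were higher in GF+MEV livers, none was lower and 30 did not pass the threshold, beside 4.12% higher and 3.52% lower over all genes tested, so nothing particular to the list is read from this count. The median log2 fold change was 0.0074. None passed among 5 genes for phosphatase catalytic subunits, a further targeting subunit and an inhibitor, among 8 other enzymes, among 10 kinase subunits and calmodulins, or among 3 glycogen-associated proteins, and 2 passed among 6 genes of glucose entry and exit.

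*G6pc* (ENSMUSG00000078650, chr11:101367561-101377903, plus strand), the catalytic subunit of glucose-6-phosphatase, rose from a mean of 102 ± 24.5 CPM under PBS to 496 ± 124 CPM under MEV (SD, n = 5), without overlap. The log2 fold change was 2.28 ± 0.23 (standard error), with an adjusted p of 1.44e-06 by edgeR (between 2.85e-22 and 6.49e-05 over the alternative settings). *Slc37a4* (ENSMUSG00000032114, chr9:44396852-44402968, plus strand), the translocase that carries glucose-6-phosphate to that enzyme, rose from 155 ± 28.0 to 218 ± 22.03 CPM (SD, n = 5), with GF+MEV replicate 4 inside the control range. The log2 fold change was 0.49 ± 0.14 (standard error), with an adjusted p of 0.015 by edgeR (between 0.000394 and 0.0457 over the alternative settings). Within the treated group replicate 4, which had the highest *Ppp1r3g*, also had the highest *G6pc* (661 CPM) and the lowest *Slc37a4* (179 CPM).

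Genes of glucose transport and of PP1 itself did not pass. *Slc2a2*, the liver glucose transporter, differed by -0.03 on the log2 scale (edgeR adjusted p = 0.912). *Ppp1cc*, a catalytic subunit of PP1, had every treated liver above every control but a difference of only 0.14 ± 0.04 on the log2 scale (standard error; edgeR adjusted p = 0.165).

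The profiles most like those of the subunits were found by the root mean square difference of z-scored log2 CPM over the 10 libraries, among the 11834 genes that averaged 1 CPM or more. Nearest to *Ppp1r3g* were *Slc25a25* (0.146), *Got1* (0.189) and *Fh1* (0.203), against a median of 1.35 over all genes. A z-score leaves out the size of a change. The log2 fold changes of these neighbours were 2.19, 1.27 and 0.37, beside 3.63 for *Ppp1r3g*. Nearest to *Ppp1r3b* were Gm44706 (0.199), *Arhgef26* (0.200) and *Rhbdd2* (0.202). *Ppp1r3c* had no neighbour as close, with *Grhl1* at 0.305, *Serpina1e* at 0.327 and *Ddc* at 0.341. The 6 neighbours of *Ppp1r3g* and *Ppp1r3b* were themselves past the threshold and higher in GF+MEV livers, which the likeness to genes that separate the groups brings with it, and the 3 of *Ppp1r3c* were not past it.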

How the data were processed

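Liver RNA of 10 germ-free mice was analysed, 5 per group, grouped by the sample titles. The authors prepared libraries with a NEBNext Ultra kit, aligned reads to GRCm38 with STAR 2.7.3a and used HTSeq to count them per Ensembl gene. They report a filter at 20 counts across all samples, without stating whether this was a sum. Of the 12147 genes tested here, 11834 averaged 1 CPM or more, so a gene that was not counted may still have had reads. They deposited raw counts, without normalization. Whether counting used strand is not given in the sources used here, so reads of overlapping antisense genes cannot be told apart. The table also held 5 columns that match no described sample, and these were not used. Symbols, positions and exon lengths came from GENCODE M21 (5 genes had no symbol), and promoter windows from RefSeq (GRCm38.p6). Protein sequences were not analysed here.

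Counts were tested with edgeR 4.0.16 in R 4.3.3 (TMM, quasi-likelihood, group alone, Benjamini-Hochberg over 12147 genes with at least 20 summed counts, threshold 0.05). Log2 fold changes are edgeR's estimates. The standard errors beside them were taken from the variance of log2 CPM (prior count 2) in the 2 groups. They are thus errors of the difference in mean log2 CPM, which can differ from edgeR's estimate. The p-values measure the spread between these mice. The 20 pairs of libraries within a group all differed beyond counting error (chi-square per gene 6.36 or more), so none was a copy of another. The 9 genes, the 37 further pathway genes, the 65 cell type markers (48 of them counted) and the division of the GF+PBS livers were chosen with earlier results of these data known. Named were all 9, pathway genes past the threshold, isoform partners, other Ppp1r3 genes and the 3 profiles nearest to each subunit. *Slc2a2* and *Ppp1cc*, the cholangiocyte markers *Spp1*, *Sox9*, *Krt7* and *Epcam*, and *Calm3* and *Stbd1* in the closing parts, were added with their values in view. Single values of 2 pathway genes are not reported here.

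On simulated counts with 200 of 12147 genes changed between the groups, edgeR recovered 188 with 12 false calls, DESeq2 1.42.0 188 with 16 and limma-voom (limma 3.58.1) 188 with 9, and edgeR called 0 genes where none was changed. Alternatives were DESeq2, limma-voom, other scalings and filters, a replicate block, leaving out each liver, subsets and sums of GF+PBS livers, a prior count of 0.5 and the longest transcript as length.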

Additional observations from a re-analysis of the deposited data

Results flagged for a closer look

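In 36 groups of 5 values for the 9 genes, their isoform partners, *Ppp1r3e*, the pathway genes that rose, the scaling factors and the total counts, 5 held a liver apart from the other 4 by Dixon's criterion for 5 samples (0.71), where chance alone gives about 1.8. None of the 5 was a value of the 9 genes. *Gys1* had 1.999 CPM in GF+PBS replicate 1, against 3.44 to 3.81 in the other GF+PBS livers. *Pygb* had 4.94 CPM in GF+MEV replicate 1, against 6.91 to 7.66 in the rest of its group. *Pygm* had 26.0 CPM in GF+MEV replicate 2, against 15.5 to 18.5, and the summed skeletal muscle markers were also highest of that group there (370.2 CPM). *Slc37a4* had 179 CPM in GF+MEV replicate 4, against 223 to 236. The TMM factor was 0.890 in GF+MEV replicate 2, where the rest of its group ran from 0.978 to 1.01, and in this library the 5 genes most in excess held 10.3% of the counts. The causes were not tested.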

How the results depend on the processing

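The 9 genes were chosen on the contrast that all 21 alternatives refit, on the same livers or on part of them. A call of *Ppp1r3g* or *Ppp1r3b* that recurs in them is therefore no sign of stability. *G6pc* and *Slc37a4*, which are not among the 9, were higher and past the threshold under all 21. They too were listed with earlier results of these data known, so the same limit holds for them. With library size alone, 332 genes were higher and 691 lower, and with GF+PBS replicates 1 and 3 summed and 4 and 5 summed 209 were lower. Of the 9 genes, 1 was lower (*Gbe1*) with upper-quartile normalization, with library size alone, without GF+MEV replicate 5, without GF+PBS replicate 1 and against GF+PBS replicates 2, 4 and 5 alone, where the log2 fold change was -0.29. Leaving out each liver in turn gave 388 to 561 genes higher and 304 to 397 lower, 2 to 3 of the 9 genes higher and 0 to 1 lower, and 2 to 3 pathway genes higher (*Stbd1* joined without GF+MEV replicate 4) and 0 lower. Against GF+PBS replicates 1 and 3 alone, 5 pathway genes were higher, *G6pc*, *Slc37a4*, *Stbd1* and *Slc2a2* among them, and 1 lower (*Calm3*), and the log2 fold change of *Ppp1r3c* turned to -0.0212. Against replicates 2, 4 and 5 alone, 1 pathway gene was lower, that of *Gys2* turned to -0.0886 and *Ppp1r3c*, at 0.67, passed the threshold. The causes were not tested. With the longest transcript as length, the level per kilobase in GF+PBS livers moved by more than 1 SD for 6 of the 9 genes. A replicate block left 450 genes higher and 342 lower, 2 of the 9 genes higher and 2 pathway genes higher. The correlation of deviations of same-numbered livers ran from -0.188 to 0.166 and not every liver matched its own number best, so the numbers were not taken as pairs. Low counts limit the fold of *Ppp1r3g*, at 14 to 102 counts in GF+PBS livers, and 5 of the 37 listed pathway genes were not among the genes counted.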
